A study of Mus musculus with 6 samples.

Results

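Irf1, Irf3, Irf7, Irf9, Isg15, Ifit1, Ifit3, Bst2 and B2m are 9 mouse genes of the interferon response. Their chromatin accessibility was read from ATAC-seq, a method in which a transposase cuts DNA that is not covered by nucleosomes. An accessible region was taken for a gene when it overlapped the RefSeq bounds of the gene extended by 20 kb on each side (build mm10), which gave 50 of the 193148 regions of the data. The genes were chosen by name. Of the 50 regions, 39 lay outside the bounds of these genes, and 15 lay within 1000 bp of the start site of some other protein-coding gene and of none of the 9, so many regions are listed by distance alone.

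Libraries of 2 genotypes were compared, to ask how the knockdown of Ogt, the gene for O-GlcNAc transferase, changes accessibility in dopamine neurons. The knockdown group was 3 libraries with the genotype label Ogtflox+/Y, and the control group was 3 libraries with the genotype label Ogtflox-/Y. Both groups received AAV-TH-Cre, a virus for the recombinase Cre named for tyrosine hydroxylase, and AAV-DIO-H2B-EGFP, a Cre-dependent virus for a green nuclear protein, in the ventral tegmental area, a midbrain region that holds dopamine neurons, and EGFP-positive nuclei were sorted. Age is not stated in the labels. Knockdown replicate 1 carries the genotype label Ogtflox+/Y, but its title names Ogtflox-/Y. Whether each library came from a mouse of its own is not in the labels, so p-values reflect only the spread among the libraries, which may be technical.

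The libraries held 41025728 to 42678585 reads in the knockdown group and 34384319 to 66853563 in the control group. Reads in the regions made up 31.0% to 37.0% of them in knockdown and 36.6% to 38.2% in control libraries. Counts of different libraries differed by more than sampling noise in every pair, with a chi-square of 1.85 to 7.86 per degree of freedom. The Th start site had the highest accessibility per kb of 10493 start-site regions, with 172 to 238 CPM in knockdown and 178 to 378 CPM in control libraries. Here CPM is the reads of a region per 1000000 reads in regions, scaled by TMM, and a start-site region is the most accessible region within 1000 bp of a RefSeq start site. The start-site region of Slc6a3, another dopamine neuron marker, was above 11.8% of start-site regions. Around 10 dopamine neuron markers, summed over 20 kb windows, knockdown libraries had 1004 to 1100 CPM and control libraries 965 to 1386 CPM. There 12 of 110 regions were called higher and 4 lower, against 15.4% and 12.7% of all regions. The Th sum was lower in knockdown libraries (log2 fold change -0.69, edgeR adjusted p = 0.011). Other cell types were also visible. Summed over the 20 kb windows of 10 astrocyte markers, knockdown libraries had 614 to 771 CPM and control libraries 553 to 620 CPM, and 37 of 104 astrocyte marker regions were called higher and 7 lower, against 15.4% and 12.7% of all regions. Around 6 markers of GABA neurons the sums were 309 to 368 CPM in knockdown and 219 to 279 CPM in control libraries. There 22 of 61 tested regions were called higher and 2 lower. Around 12 microglia markers the sums were 256 to 268 CPM in knockdown and 251 to 275 CPM in control libraries. Of those 12 genes 10 had no tested start-site region, and 6 of 54 tested regions were called higher and 4 lower. Around 10 oligodendrocyte markers knockdown replicates 1, 2 and 3 had 596, 438 and 494 CPM, and control libraries 440 to 501 CPM. Of 92 tested regions there 26 were called higher and 13 lower. Around 9 endothelial markers with a region the sums were 106 to 111.8 CPM in knockdown and 111.9 to 122 CPM in control libraries. Of 40 tested regions there 4 were called higher and 6 lower. The part of these differences in the results was not tested. In sorted nuclei measured in bulk, fewer nuclei with an open region and less opening in each nucleus cannot be told apart. The Ogt start-site region had 17.9, 15.0 and 14.7 CPM in knockdown and 11.1, 11.1 and 9.08 CPM in control libraries. Which exons are floxed is not known here, so this value does not check the labels.

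Interferons are proteins that cells release after sensing viral nucleic acid. IRF3 and IRF7 are transcription factors that, once phosphorylated downstream of such sensors, switch on interferon genes. Interferon bound to its receptor activates JAK kinases, which phosphorylate STAT proteins. STAT proteins and IRF9 then bind the interferon-stimulated response element and switch on genes such as Isg15, the Ifit genes and Bst2. IRF1 is itself induced by interferon through STAT sites and drives antigen presentation genes, among them B2m. Neurons express parts of this pathway, and STAT3, named in the title of the series, binds palindromes of this kind.

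The start-site sequences of these genes fell into those with an interferon-stimulated response element core, here the letters GAAANNGAAA on either strand, and those without. RefSeq promoters (build GRCm38.p6, the same as mm10) run from 250 bases before to 50 bases after the start site. At least 1 match was found for 5 of the 9 genes, against 3.44% of 32851 RefSeq promoters. A STAT palindrome, TTCNNNGAA, was found for 2 genes, against 8.30% of promoters. A gene was counted when any of its promoters matched, while the RefSeq promoters were counted singly and not per gene. A match is a description of the letters and not a bound site. The 4 promoters of interferon-induced genes are shown because they carry the response element core, with matches in capitals, on the strand of each gene. In Isg15 (chr4:156200769-156201068, minus strand) 3 overlapping matches run from base -78 to base -57, counted from the start site. In Ifit1 (chr19:34640639-34640938, plus strand) matches lie at -104 to -95 and -85 to -76. In Ifit3 (chr19:34583279-34583578, plus strand) they lie at -156 to -147 and -122 to -113. In Bst2 (chr8:71537423-71537722, minus strand) a STAT palindrome at -136 to -128 overlaps a pair of overlapping response element cores, so the capitals mark both.
Isg15: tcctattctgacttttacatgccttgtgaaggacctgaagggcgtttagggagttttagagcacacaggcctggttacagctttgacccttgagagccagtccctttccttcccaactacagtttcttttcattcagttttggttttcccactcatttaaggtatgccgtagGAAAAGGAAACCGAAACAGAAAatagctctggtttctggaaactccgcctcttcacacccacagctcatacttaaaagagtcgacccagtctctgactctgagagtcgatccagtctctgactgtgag
Ifit1: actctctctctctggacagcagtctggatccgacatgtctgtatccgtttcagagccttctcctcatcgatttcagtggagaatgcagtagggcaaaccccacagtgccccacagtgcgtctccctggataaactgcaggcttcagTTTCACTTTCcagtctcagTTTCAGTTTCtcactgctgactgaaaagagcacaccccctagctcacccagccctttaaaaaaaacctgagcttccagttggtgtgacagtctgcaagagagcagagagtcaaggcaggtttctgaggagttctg
Ifit3: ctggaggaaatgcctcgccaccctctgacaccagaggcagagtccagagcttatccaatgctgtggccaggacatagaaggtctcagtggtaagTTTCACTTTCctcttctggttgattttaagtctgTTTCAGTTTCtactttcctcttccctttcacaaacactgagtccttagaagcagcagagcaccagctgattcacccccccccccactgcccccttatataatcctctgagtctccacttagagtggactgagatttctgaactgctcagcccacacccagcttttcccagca
Bst2: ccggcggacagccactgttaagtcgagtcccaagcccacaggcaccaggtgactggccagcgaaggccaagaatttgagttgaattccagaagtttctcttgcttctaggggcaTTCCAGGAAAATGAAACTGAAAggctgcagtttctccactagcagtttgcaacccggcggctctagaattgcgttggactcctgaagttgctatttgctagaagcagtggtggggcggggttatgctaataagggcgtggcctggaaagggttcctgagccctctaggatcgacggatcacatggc

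The remaining 3 promoters shown belong to B2m, Irf1 and Irf3. B2m (chr2:122147437-122147736, plus strand) has a response element core at -139 to -130. The upstream start site of Irf1 (chr11:53769764-53770063, plus strand) has a STAT palindrome at -90 to -82. Irf3 (chr7:44997398-44997697, plus strand) is shown because its start-site region had the largest decrease among those of these genes. It has a match to neither motif, which says only that these letters are not in this window, and therefore no capitals. The Irf7 and Irf9 promoters also had no match.
B2m: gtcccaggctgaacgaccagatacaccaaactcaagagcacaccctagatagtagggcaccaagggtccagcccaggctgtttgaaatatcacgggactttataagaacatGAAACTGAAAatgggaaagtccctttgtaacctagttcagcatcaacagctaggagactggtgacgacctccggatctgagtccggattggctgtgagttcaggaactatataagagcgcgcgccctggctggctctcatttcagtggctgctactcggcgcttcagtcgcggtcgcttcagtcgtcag
Irf1: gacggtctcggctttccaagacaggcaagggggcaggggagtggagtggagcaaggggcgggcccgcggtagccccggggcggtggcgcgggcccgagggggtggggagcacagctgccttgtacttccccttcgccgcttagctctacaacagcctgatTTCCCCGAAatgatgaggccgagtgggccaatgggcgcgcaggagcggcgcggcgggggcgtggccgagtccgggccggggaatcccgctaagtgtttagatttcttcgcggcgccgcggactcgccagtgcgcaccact
Irf3: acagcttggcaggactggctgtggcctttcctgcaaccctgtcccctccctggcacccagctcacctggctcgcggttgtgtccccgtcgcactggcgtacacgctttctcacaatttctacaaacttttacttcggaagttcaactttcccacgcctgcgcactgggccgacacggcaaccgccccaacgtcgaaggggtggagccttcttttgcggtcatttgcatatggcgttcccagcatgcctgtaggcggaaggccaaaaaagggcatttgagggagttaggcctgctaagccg

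Of the 9 genes, 7 had a start-site region. Among them the Irf3 start site was less accessible in the knockdown libraries, by 2.22-fold, and the Bst2 and B2m start sites were more accessible, by 1.55-fold and 1.32-fold. Those of Irf1, Irf7, Irf9 and Ifit1 did not pass the test. Isg15 and Ifit3 had no region within 1000 bp of a start site, and no region overlapped their promoters printed above. Per kb of region, the order of mean levels in knockdown libraries was B2m (68.5 ± 2.74 CPM per kb), Irf9 (61.9 ± 5.42), Irf1 (48.2 ± 3.48), Irf7 (26.4 ± 1.24), Irf3 (20.9 ± 1.39), Ifit1 (17.5 ± 1.82) and Bst2 (16.8 ± 3.64). In control libraries it was Irf9 (54.9 ± 5.04 CPM per kb), B2m (52.3 ± 7.54), Irf3 (46.6 ± 4.59), Irf1 (44.4 ± 0.592), Irf7 (21.2 ± 2.08), Ifit1 (13.4 ± 2.69) and Bst2 (10.9 ± 0.797), all ± SD with n = 3. Irf3 was thus the third of these 7 start sites in control and the fifth in knockdown libraries. The neighbours Ifit1 and Bst2 differed by less than the larger of their SDs in both groups, as did Irf9 and B2m, and Irf3 and Irf1, in control libraries. Against start-site regions of all protein-coding genes these were middling to low levels, with B2m above 55.9% of them and Bst2 above 14.5%.

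**Figure D1:**
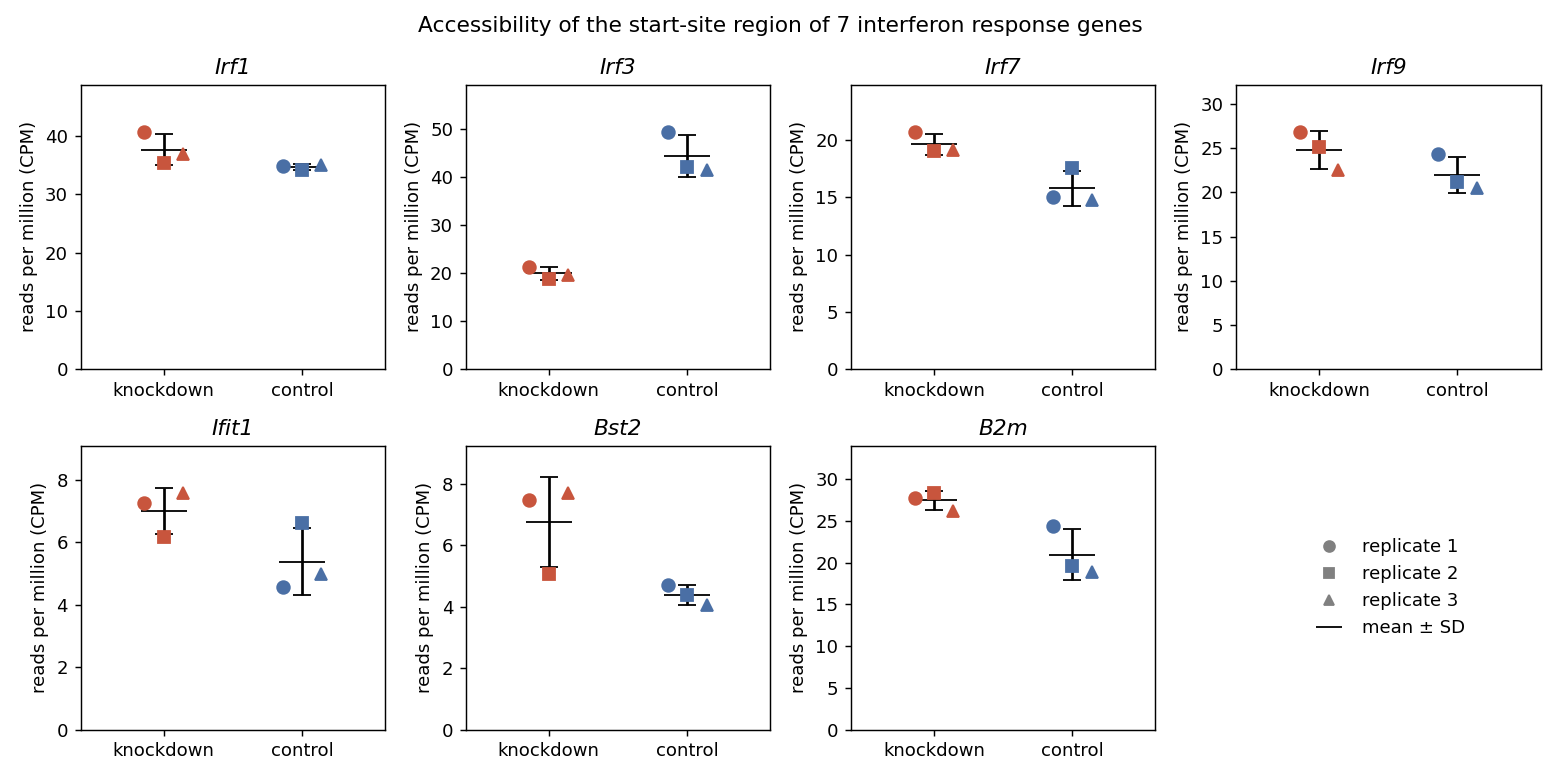
Accessibility of the start-site region of 7 genes in CPM, with a point for each library and bars for the mean ± SD of 3 knockdown and 3 control libraries. All 3 knockdown points of Irf3 (18.7 to 21.3 CPM) lie below its control points (41.4 to 49.3 CPM), while those of Bst2 and B2m lie above.

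Irf3, which carries signals from nucleic acid sensors to the interferon genes, had the clearest difference. Its start-site region is 950 bp long (chr7:44997137-44998086) and covers the whole printed promoter. It is shared with Bcl2l12, which starts on the other strand, so its reads cannot be given to either gene. The region had 21.3, 18.7 and 19.7 CPM in knockdown and 49.3, 42.0 and 41.4 CPM in control libraries (19.9 ± 1.32 against 44.2 ± 4.36, SD, n = 3 each). Every knockdown library was below every control library. The log2 fold change was -1.15 (SE 0.11, edgeR quasi-likelihood test, adjusted p = 1.2e-06 with Benjamini-Hochberg adjustment over all regions). Of all start-site regions of coding genes, 0.792% had a lower fold change, and 5.76% were called lower at all. The call was made in 12 of 12 other settings that group by the genotype label, with log2 fold changes of -1.41 to -1.06. With libraries grouped by title the log2 fold change was -1.01 and the adjusted p 0.41.

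The rest of the Irf3 window held 8 regions, which went both ways. A region inside the arginine methyltransferase gene Prmt1 (chr7:44984141-44984541) had 8.91, 9.26 and 9.96 CPM in knockdown and 2.66, 2.93 and 2.51 CPM in control libraries. It was 3.46-fold higher in knockdown libraries (log2 fold change 1.79 with an SE of 0.18, edgeR adjusted p = 3.1e-06), with no overlap of the groups. A pair of regions at the Prmt1 start site were also called higher, with log2 fold changes of 0.61 and 0.33 (edgeR adjusted p = 0.0085 and 0.037). The call on the region nearer to that start was lost in 9 of 12 other settings, and its sign turned under the loess scaling described in the closing section (-0.053). The start site of Rras, a small GTPase gene, was higher too, with 58.2, 43.4 and 54.1 CPM in knockdown and 35.8, 32.2 and 32.3 CPM in control libraries (log2 fold change 0.64, edgeR adjusted p = 4.8e-04). Near the 3′ end of Irf3 itself a weak region (chr7:45002393-45002793) had 3.78, 2.85 and 3.32 CPM in knockdown and 4.86, 4.84 and 5.53 CPM in control libraries (log2 fold change -0.61, edgeR adjusted p = 0.029), a call lost in 8 of 12 other settings. The other regions of the window were not called. They were another region in Prmt1 (log2 fold change 0.087), a second region at the Irf3 start (0.074) and the Scaf1 start site downstream (-0.26). The calls in the Irf3 window were thus decreases at the start and at the 3′ end of Irf3 and increases at Prmt1 upstream and at Rras downstream.

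The start sites of the other 3 Irf genes had smaller differences. Irf1, the interferon-induced activator of antigen presentation genes, had 40.7, 35.4 and 37.0 CPM in knockdown and 34.9, 34.2 and 35.1 CPM in control libraries at chr11:53769802-53770584 (log2 fold change 0.12, edgeR adjusted p = 0.37). The knockdown values lie just above the control values, by less than the test could call. Irf7, the inducible partner of Irf3, had 20.7, 19.1 and 19.1 CPM in knockdown and 15.0, 17.6 and 14.8 CPM in control libraries at chr7:141265897-141266640 (log2 fold change 0.31, edgeR adjusted p = 0.052). Its groups did not overlap, and the test missed the threshold. Irf9, a DNA-binding partner of STAT proteins, had 26.8, 25.2 and 22.5 CPM in knockdown and 24.3, 21.2 and 20.5 CPM in control libraries at chr14:55603884-55604284 (log2 fold change 0.18, edgeR adjusted p = 0.23), and its groups overlapped. With library totals as the scale the log2 fold changes of Irf1 and Irf9 were -0.15 and -0.089. That scale moved all regions down, and relative to the median of all regions Irf1 and Irf9 were at 0.12 and 0.18. With loess scaling they were at -0.16 and -0.021 relative to that median. In the main test the log2 fold changes of Irf1, Irf7 and Irf9 were above 33.7%, 63.4% and 41.7% of start-site regions.

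Farther out, the Irf1 window held a called region 14482 bp upstream (chr11:53755132-53755532), with 1.59, 1.98 and 1.86 CPM in knockdown and 0.531, 0.819 and 0.899 CPM in control libraries. It was higher in all 3 knockdown libraries (log2 fold change 1.21, edgeR adjusted p = 0.0071). Of the 6 regions of this window 2 were called higher and 0 lower, against 15.4% and 12.7% of all regions. The second call, 5804 bp upstream (log2 fold change 0.33, edgeR adjusted p = 0.046), was lost in 10 of 12 other settings that group by the genotype label. The Irf9 window held 7 regions with 1 call, at the start site of Psme2, a proteasome activator subunit that interferon induces. That region (chr14:55590957-55591357) had 34.1, 23.7 and 33.6 CPM in knockdown and 21.6, 19.4 and 21.8 CPM in control libraries (log2 fold change 0.55, edgeR adjusted p = 0.0039). Knockdown replicate 2 stood closest to the controls there. With it as the only knockdown library, and the spread taken from the controls alone, the log2 fold change was 0.16. None of the 4 regions around Irf7 was called by edgeR or DESeq2, and 1 had an unadjusted p under 0.05.

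**Figure D2:**
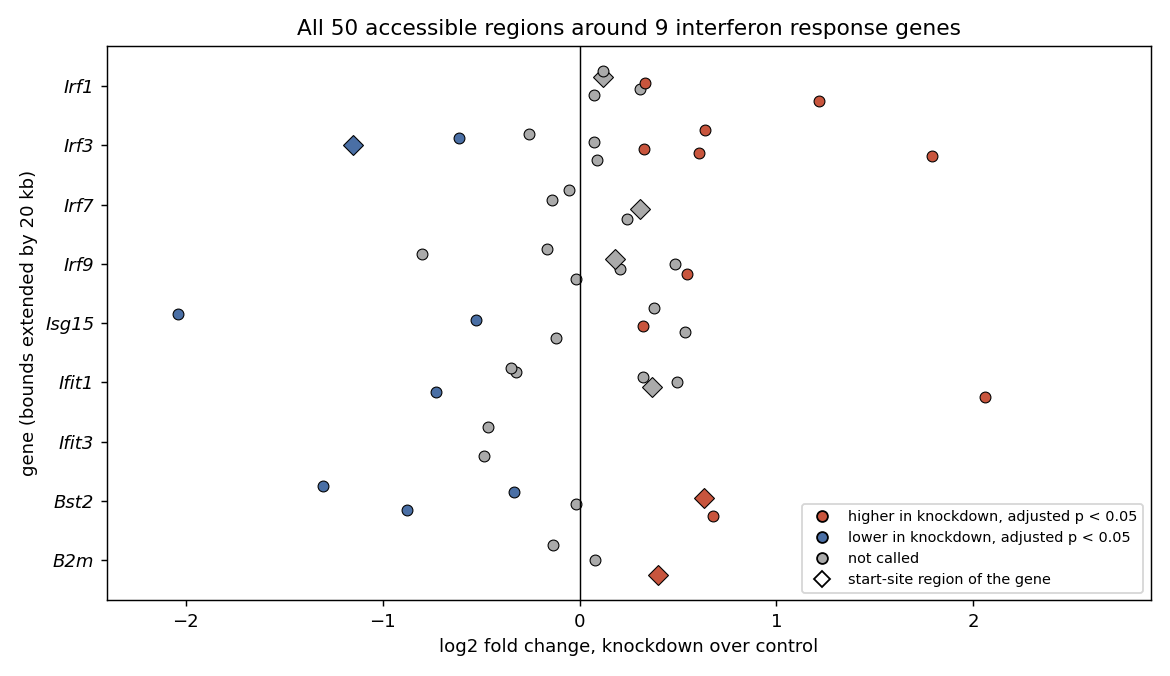
Log2 fold change, knockdown over control, of all 50 regions (x axis), with a row for each of the 9 genes. Diamonds are start-site regions, and colour marks an adjusted p under 0.05 in either direction. The calls run from -2.04 upstream of Isg15 to 2.06 upstream of Ifit1, and the Irf3 start-site region stands at -1.15 while the other 6 start-site regions lie above 0.

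Isg15 encodes a ubiquitin-like protein that is joined to other proteins after interferon. Its promoter, with the 3 overlapping response element cores printed above, had no region in these data. The largest decrease among all 50 regions lay 9248 bp upstream of it, inside Perm1 (chr4:156210066-156210466). That region had 1.13, 0.871 and 1.39 CPM in knockdown and 6.53, 4.21 and 3.69 CPM in control libraries (1.13 ± 0.262 against 4.81 ± 1.51, SD, n = 3 each). It was 4.11-fold lower in knockdown libraries, with no overlap of the groups (log2 fold change -2.04 with an SE of 0.28, edgeR adjusted p = 8.6e-05), and the call held in 12 of 12 other settings that group by the genotype label. A region 2123 bp upstream, also in Perm1 (chr4:156202941-156203713), had 9.06, 8.47 and 11.7 CPM in knockdown and 14.7, 14.9 and 12.8 CPM in control libraries. It was lower (log2 fold change -0.53, edgeR adjusted p = 0.011), a call lost without control replicate 2 (adjusted p 0.067). On the other side, 1204 bp beyond Isg15 and near the start site of Agrn, a region had 28.2, 22.7 and 27.7 CPM in knockdown and 22.6, 20.9 and 19.7 CPM in control libraries (log2 fold change 0.32, edgeR adjusted p = 0.037). This small increase was lost in 9 of 12 other settings.

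Ifit1 and Ifit3 encode proteins that bind foreign RNA, and both lie in the Ifit cluster of chromosome 19, whose near-identical copies may share reads. The Ifit1 start-site region (chr19:34640633-34641033), which also holds a start site of Ifit1bl2 and covers the whole printed promoter, had 7.25, 6.17 and 7.57 CPM in knockdown and 4.55, 6.59 and 4.97 CPM in control libraries. The groups overlapped (log2 fold change 0.37, edgeR adjusted p = 0.15). The largest increase among all 50 regions lay 9005 bp upstream, within Ifit1bl1 and Ifit1bl2 (chr19:34631484-34631884), with 3.55, 1.27 and 2.32 CPM in knockdown and 0.531, 0.507 and 0.662 CPM in control libraries. It was 4.16-fold higher in knockdown libraries (log2 fold change 2.06 with an SE of 0.37, edgeR adjusted p = 6.7e-04). The value of knockdown replicate 2 was the lowest of the knockdown group, and with it as the only knockdown library, and the spread taken from the controls alone, the log2 fold change was 1.13 (adjusted p 0.19). Between that region and Ifit1, 3593 bp upstream (chr19:34636896-34637296), the change went the other way, with 4.00, 4.43 and 3.05 CPM in knockdown and 6.53, 7.10 and 5.30 CPM in control libraries (log2 fold change -0.73, edgeR adjusted p = 0.013). Leaving out knockdown replicate 3 or control replicate 2 ended the call. The Ifit3 window held 2 regions, both inside Ifit2 and more than 10 kb from Ifit3. They had log2 fold changes of -0.48 and -0.47 (edgeR adjusted p = 0.073 and 0.26), and DESeq2 called neither.

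Bst2 encodes tetherin, a membrane protein that holds budding viruses on the cell. Its start-site region (chr8:71537290-71537690) overlaps 268 of the 300 bases of the printed promoter and had 7.48, 5.07 and 7.70 CPM in knockdown and 4.71, 4.37 and 4.07 CPM in control libraries (6.75 ± 1.46 against 4.38 ± 0.320, SD, n = 3 each). Every knockdown library was above every control library, with knockdown replicate 2 nearest to them (log2 fold change 0.63 with an SE of 0.20, edgeR adjusted p = 0.022). The call was made in 5 of 12 other settings that group by the genotype label, and with knockdown replicate 2 alone the log2 fold change was 0.20 (adjusted p 0.68). Of the 5 regions in the flanks of Bst2, 3 were called lower, against 12.7% of all regions. The region 12210 bp downstream, in Ccdc194 (chr8:71521645-71522045), had 12.1, 11.1 and 7.97 CPM in knockdown and 22.4, 18.7 and 16.1 CPM in control libraries (log2 fold change -0.88, edgeR adjusted p = 6.7e-04). The region 13221 bp upstream (chr8:71550693-71551093) had 1.28, 1.50 and 3.39 CPM in knockdown and 4.93, 6.24 and 4.26 CPM in control libraries (log2 fold change -1.30, edgeR adjusted p = 0.0031). Both calls held in 12 of 12 other settings that group by the genotype label. The start site of Mvb12a, an ESCRT subunit gene 5150 bp upstream, was slightly lower (log2 fold change -0.33, edgeR adjusted p = 0.023), a call lost without knockdown replicate 3 and without control replicate 1. A weak region 14820 bp downstream, with 2.87, 2.45 and 2.66 CPM in knockdown and 1.44, 1.56 and 1.94 CPM in control libraries, was called higher at an edgeR adjusted p of 0.045 and was lost in 9 of 12 other settings.

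B2m encodes the light chain of MHC class I molecules, which show peptides to T cells. Its start-site region (chr2:122147456-122147856) overlaps 281 of the 300 bases of the printed promoter and the bounds of Patl2. It had 27.8, 28.3 and 26.2 CPM in knockdown and 24.4, 19.5 and 18.9 CPM in control libraries (27.5 ± 1.10 against 21.0 ± 3.02, SD, n = 3 each). The knockdown libraries were all above the control libraries (log2 fold change 0.40 with an SE of 0.11, edgeR adjusted p = 0.0134). The call was made in 7 of 12 other settings that group by the genotype label, and with library totals as the scale the log2 fold change was 0.13 (adjusted p 0.44). The other 2 regions, 5146 bp and 7550 bp downstream, had log2 fold changes of 0.08 and -0.13 and were not called.

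**Figure D3:**
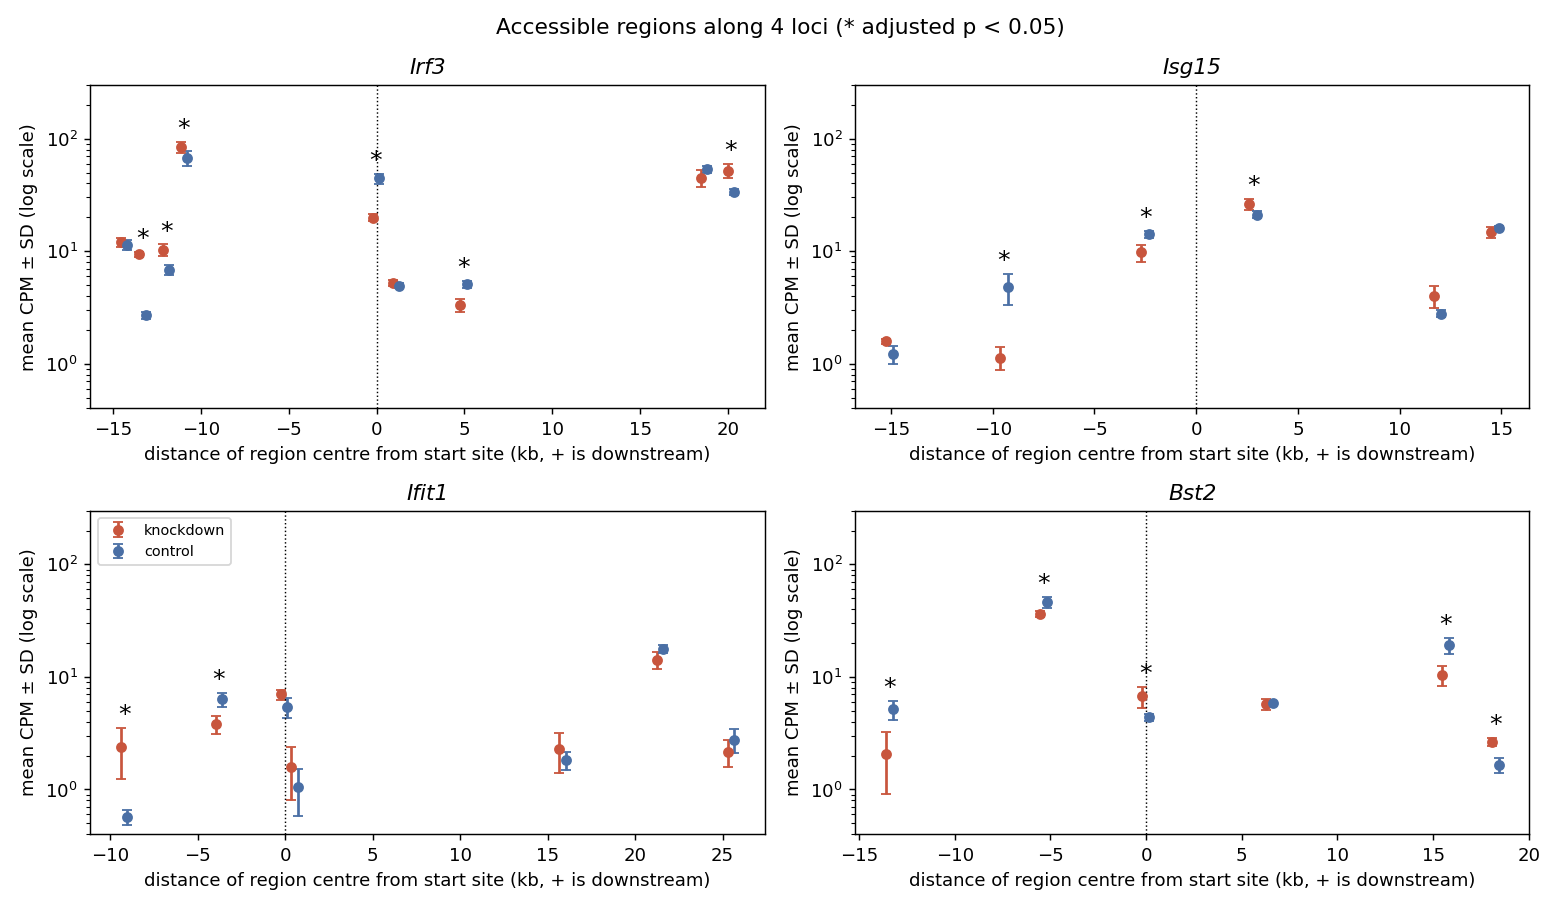
Mean CPM ± SD (log axis) of knockdown and control libraries (n = 3 each) for each region along 4 of the windows, by distance of the region centre from the start site of the gene in kb, downstream to the right. Stars mark an adjusted p under 0.05. The Irf3 start site is lower in knockdown libraries while regions at Prmt1, to the left, are higher. The Bst2 start site is higher while 3 of 5 flanking regions are lower. Of all regions 12.7% were called lower and 15.4% higher.

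Counted together, 12 of the 50 regions were called higher and 8 lower in knockdown libraries, with 30 not called. All 50 passed the filter on low counts, and the lowest count in any library was 7 reads. Of all 191693 regions tested, 15.4% were called higher and 12.7% lower, and of the 50 it was 24.0% and 16.0%. The median log2 fold change was 0.10 over the 50 regions and -0.0065 over all regions. The groups did not overlap in 17 of the 50 regions with knockdown above control and in 10 with knockdown below, against 21.0% and 21.2% of all regions. Of the 7 start-site regions 2 were called higher and 1 lower, against 37.1% and 5.76% of the start-site regions of all coding genes, whose median log2 fold change was 0.23. DESeq2 also called these 3, against shares of 30.0% higher and 4.26% lower, and library totals gave 0 higher and 1 lower, against 5.27% and 13.7%. Higher calls were therefore common at start sites as a whole. The log2 fold change of Bst2 was above 94.0% of start-site regions, and that of B2m above 76.6%. With loess scaling, under which the median start-site region was at -0.0049, Bst2 was at 0.71 and above 96.5%, and B2m at 0.19 and not called.

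The balance of calls depended on the scale. With library totals in place of TMM, which moved the median of all regions by -0.27 on the log2 scale, 4 of the 50 regions were called higher and 12 lower, and over all regions the higher share of calls was 21.7% in place of 54.9%. Over all regions 6.82% were then higher and 24.6% lower. With reads in regions as the scale 7 of the 50 were called higher and 12 lower, against 11.8% and 17.4% of all regions, and the higher share of calls was 40.3%. DESeq2 called 8 higher and 7 lower, against 10.9% and 7.69% of all regions, and loess scaling 9 and 9, against 13.7% and 11.6%. Library totals and reads in regions move every region down, so the 8 decreases stayed called under them by construction. Of the 12 increases 4 stayed called with library totals, against 44.2% of all increases, and 7 with reads in regions, against 76.2%. Relative to the median of all regions the Irf3 start site was at -1.14 with either scale. Knockdown replicate 2 had the lowest value of its group in 9 of the 12 regions called higher, against 49.4% of the 29579 called higher anywhere. It was also the lowest in 5 of the 8 regions called lower, against 26.8% of all regions called lower, and there it lay farthest from the controls. Of the astrocyte marker regions called higher it was the lowest in 86.5%. With that library as the only knockdown library, where the spread comes from the control libraries alone, 1 of the 12 increases and 6 of the 8 decreases stayed called, against 35.3% and 37.9% over all regions. The part of these library differences in the result was not tested.

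**Figure D4:**
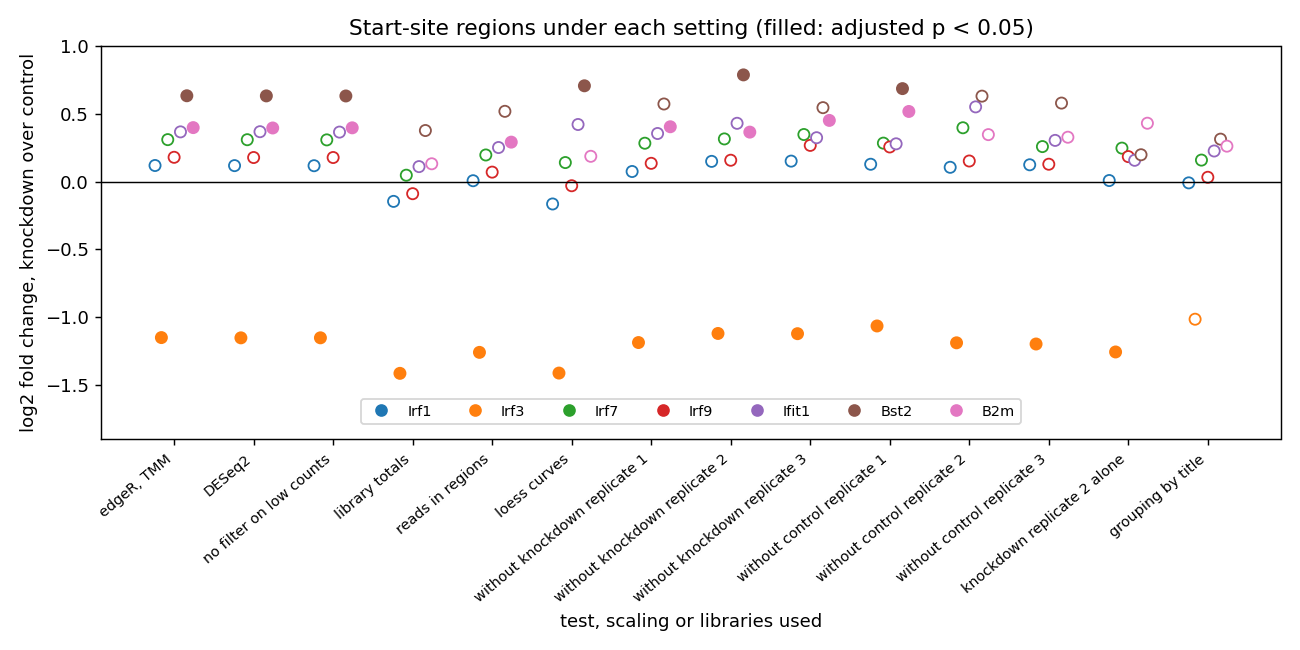
Log2 fold change of 7 start-site regions under the main test, under 12 other settings that group by the genotype label, and with libraries grouped by title. Filled points have an adjusted p under 0.05. Irf3 stays between -1.41 and -1.06 with filled points until the grouping by title (-1.01), while Bst2 and B2m are filled in 5 and 7 of the 12 settings.

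Reads were also summed over each window, which gives a value per gene that large neighbouring regions can dominate. None of the 9 sums was called higher by edgeR or DESeq2, and none had an unadjusted p under 0.05 in that direction. EdgeR called 3 lower, and DESeq2 called 2. Over 18416 coding genes 17.9% of the sums were called higher and 19.6% lower by edgeR, and 17.0% and 18.4% by DESeq2. Bst2 had 63.3, 59.6 and 60.3 CPM in knockdown and 91.9, 84.3 and 81.9 CPM in control libraries (log2 fold change -0.49 with an SE of 0.062, edgeR adjusted p = 4.6e-05). That decrease lay in the flanks, since the sum over the gene bounds alone had a log2 fold change of 0.48 (adjusted p 0.066) and the sum over bounds extended by 5000 bp one of 0.15 (adjusted p 0.41). Ifit3 had 6.00, 5.38 and 6.39 CPM in knockdown and 10.4, 9.60 and 7.50 CPM in control libraries, all in Ifit2 (log2 fold change -0.62, edgeR adjusted p = 0.014). The call was lost in 6 of 14 other settings that group by the genotype label, among them loess scaling, without control replicate 1 and without control replicate 2. Isg15 had 54.9, 48.8 and 60.0 CPM in knockdown and 63.9, 64.2 and 60.4 CPM in control libraries (log2 fold change -0.20, edgeR adjusted p = 0.045), a call lost in 9 of 14 other settings that group by the genotype label, among them DESeq2 and each smaller window. The other 6 sums had log2 fold changes of -0.23 to 0.15.

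Other genes of the pathway were counted in the same windows from a list of 74, of which 72 matched a RefSeq gene. The remaining 2, Mx1 and Mx2, were not analysed here. Their 449 regions held 86 called higher (19.2%) and 58 called lower (12.9%), against 15.4% and 12.7% of all regions. Of 43 start-site regions tested, 13 were called higher and 0 lower by edgeR, and 11 and 0 by DESeq2, with 15 and 0 at an unadjusted p under 0.05. The share called higher at start sites of all coding genes was 37.1%. Of the 72 sums, 10 were called higher and 15 lower, against 17.9% and 19.6% of the sums of all coding genes. Of 57 genes with a promoter sequence, 18 held a response element core and 14 a STAT palindrome in at least 1 promoter. Over all RefSeq promoters, counted singly and not per gene, the shares were 3.44% and 8.30%.

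The 13 start-site regions called higher were those of the adaptor genes Myd88 and Ticam1, the kinase genes Tbk1, Jak1 and Jak2, the receptor gene Ifnar2, the repressor gene Irf2, the RNA-editing gene Adar, the GTPase gene Irgm1, and the antigen presentation genes Tap1 and Psmb9 (which share a region), Psmb10, H2-D1 and Erap1. Their log2 fold changes ran from 0.28 at Tbk1 to 0.67 at Ticam1. Counts for genes with close copies (the Ifit, Ifitm, Oas and H2 families) are uncertain, since reads could be split between copies.

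The shares over all regions (15.4% higher and 12.7% lower) and over all sums (17.9% higher and 19.6% lower) are the background for each role group that follows. Genes that sense nucleic acid and relay the signal had 12 regions called higher and 11 lower of 91, and of 15 sums 0 were called higher and 3 lower, which is near that background for regions and for lower sums. Ddx58, the RNA sensor RIG-I, had sums of 13.4, 15.1 and 15.9 CPM in knockdown and 21.0, 23.3 and 21.6 CPM in control libraries (log2 fold change -0.57, edgeR adjusted p = 0.0018). Zbp1, a sensor of Z-form nucleic acid, had sums of 29.5, 33.4 and 28.8 CPM in knockdown and 40.2, 44.1 and 39.3 CPM in control libraries (log2 fold change -0.44, edgeR adjusted p = 0.0016). Both had no overlap between the groups, and both calls were lost in the smaller windows.

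Receptors and their kinases and STATs had 11 regions called higher and 16 lower of 82, and of 9 sums 1 was higher and 5 lower. Ifnar2, a subunit of the type I interferon receptor, was the increase. Its sum was 55.8, 50.1 and 50.8 CPM in knockdown and 37.8, 36.9 and 37.8 CPM in control libraries (log2 fold change 0.48 with an SE of 0.075, edgeR adjusted p = 2.2e-04). Its start-site region had 36.9, 29.1 and 31.9 CPM in knockdown and 22.0, 20.8 and 20.5 CPM in control libraries, 1.55-fold higher. Ifngr2, a subunit of the interferon gamma receptor, had sums of 6.55, 6.08 and 4.36 CPM in knockdown and 8.21, 9.94 and 8.12 CPM in control libraries (log2 fold change -0.64, edgeR adjusted p = 0.015). The call on the Ifnar2 sum held in 14 of 14 other settings that group by the genotype label, and that on the Ifngr2 sum was lost in 4 of them (with knockdown replicate 2 alone, with loess scaling, and without knockdown replicate 3 or control replicate 2).

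The 5 other Irf genes had 7 regions called higher and 6 lower of 45. The sum of Irf2, a repressor of interferon responses, was slightly higher, with 112, 103 and 111 CPM in knockdown and 86.4, 98.0 and 101 CPM in control libraries (log2 fold change 0.19, edgeR adjusted p = 0.027). In 6 of 14 other settings that group by the genotype label Irf2 was not called, among them library totals, loess scaling, and without knockdown replicate 1, knockdown replicate 3 or control replicate 1. That of Irf4, best known from lymphocytes, was lower, with 10.04, 10.997 and 10.4 CPM in knockdown and 18.2, 18.8 and 19.1 CPM in control libraries (log2 fold change -0.84, edgeR adjusted p = 1.9e-04), a call lost in the smaller windows.

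Interferon-induced effectors had 28 regions called higher and 16 lower of 142, and of 29 sums 4 were higher and 6 lower. Sp100, a nuclear body protein, had the largest change, with sums of 5.30, 7.57 and 7.27 CPM in knockdown and 14.8, 12.9 and 13.9 CPM in control libraries (log2 fold change -1.04, edgeR adjusted p = 2.8e-04). The antiviral membrane protein genes Ifitm3 and Ifitm1, which are neighbours in the genome, had opposite signs. Ifitm3 sums were 16.0, 9.20 and 11.9 CPM in knockdown and 8.44, 8.11 and 7.09 CPM in control libraries (log2 fold change 0.66, edgeR adjusted p = 0.0125). Ifitm1 sums were 2.44, 2.73 and 1.45 CPM in knockdown and 2.97, 3.56 and 4.26 CPM in control libraries (log2 fold change -0.73, edgeR adjusted p = 0.046), a call lost in 10 of 14 other settings that group by the genotype label. The Ifitm3 call was lost in 5 of 14, among them without knockdown replicate 1 and without control replicate 3. Ifi27 sums were higher (log2 fold change 0.30, edgeR adjusted p = 0.0023), with the sign turned over the gene bounds alone (-0.11) and over 5000 bp (-0.046). The 4 genes of the ISG15 conjugation system had 6 regions called in each direction of 27, and none of their sums was called by edgeR or DESeq2 or had an unadjusted p under 0.05.

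Antigen presentation genes, to which B2m belongs by function, had 22 regions called higher and 3 lower of 62. Of their 7 tested start-site regions 4 were called higher and 0 lower, against 37.1% and 5.76% of start-site regions of all coding genes. How many of the 62 regions lie at start sites of any gene was not counted, so the share of all regions may be too low a background here. Of 10 sums 4 were called higher (Psmb8, Nlrc5, Tap2 and H2-K1) and 0 lower, by edgeR and by DESeq2 alike, and with library totals as the scale 0 were called in either direction, against 3.36% higher and 24.9% lower over all coding genes. Psmb8, a subunit of the immunoproteasome, had sums of 95.1, 86.0 and 90.2 CPM in knockdown and 76.0, 74.7 and 70.5 CPM in control libraries (log2 fold change 0.30, edgeR adjusted p = 0.0013). Nlrc5, the activator of MHC class I genes, had sums of 78.4, 84.5 and 86.5 CPM in knockdown and 68.7, 68.2 and 73.2 CPM in control libraries (log2 fold change 0.25, edgeR adjusted p = 0.0050). Both lay above all controls, and the sign turned for Psmb8 over 5000 bp (-0.12) and for Nlrc5 over the gene bounds alone (-0.11). Several of these genes lie side by side in the MHC locus, so their regions are shared.

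**Figure D5:**
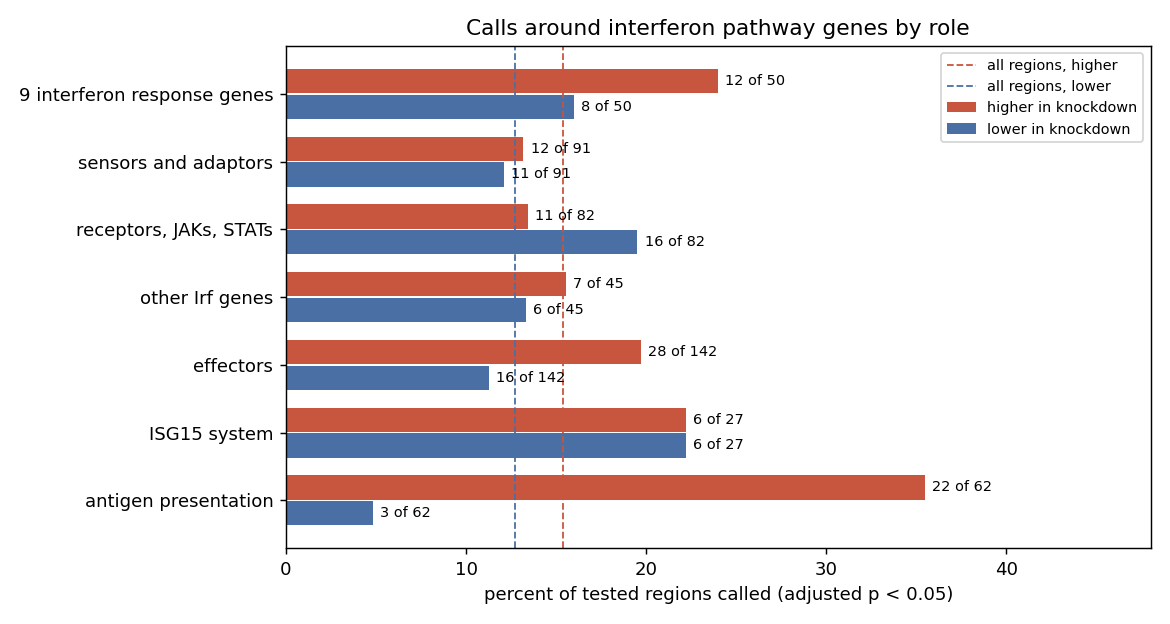
Percent of tested regions called higher (red) and lower (blue) in knockdown libraries at an adjusted p under 0.05, for the 9 genes and for 6 role groups of other pathway genes. Dashed lines give the shares of all regions (15.4% higher and 12.7% lower). The shares of start-site regions of all coding genes (37.1% and 5.76%) are not drawn. Antigen presentation genes have 22 of 62 regions higher and 3 lower, and sensors 12 and 11 of 91.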

How the data were processed

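Chromatin accessibility was measured in 6 libraries, 3 of each genotype. Per the submitters' processing notes, FastQC, Trimmomatic, BWA, SAMtools 1.9, Picard, MACS2 and build mm10 were used, with no roles given. How reads were counted or shifted for transposase cutting, and how the regions were made, is not given in the sources used here. Per the labels' protocols a general DNA library kit was used, with no transposition step described. Per the file headers, the authors deposited for each region counts of reads with an RPKM value and a score beside them, and the test used only the counts.

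Counts were fitted with edgeR 4.0.16 in R 4.3.3 (TMM scaling, filterByExpr, quasi-likelihood test, Benjamini-Hochberg adjustment over all regions, threshold 0.05), knockdown over control. The SE is the log2 fold change divided by the root of the test statistic. CPM of summed reads use the TMM factors of the sums. The fit was tested on simulated data. DESeq2 1.42.0 and the settings of the closing section were alternatives, and loess scaling used limma 3.58.1. A count of 3 reads is 0.117 to 0.237 CPM. Gene bounds, start sites and promoters are from RefSeq (GRCm38.p6).

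The genes, lists and tests were chosen with earlier results of these data known. Text names all 9 genes, the start-site region of each, its called region with the largest change in each direction, and in each role group the 2 called sums with the largest change in each direction, except 1 that is not reported here. Further regions of the 9 windows, the counts of start-site regions and the names of pathway start sites were added after their values were seen.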

Additional observations from a re-analysis of the deposited data

How the results depend on the processing

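Each result was recomputed under 15 settings at most. In what follows counts are given in the order regions of the 9 genes called higher and lower, then regions of the other pathway genes called higher and lower, against 12, 8, 86 and 58 in the main test. They were 8, 7, 56 and 36 with DESeq2, 4, 12, 27 and 113 with library totals, 7, 12, 59 and 83 with reads in regions, 9, 9, 69 and 74 with loess curves, 12, 8, 85 and 58 with no filter, and 1, 8, 29 and 28 with knockdown replicate 2 alone, where only the controls give the spread. Windows of 5000 bp gave 3, 4, 52 and 33, and gene bounds alone 2, 2, 36 and 29. Leaving out each library gave 6 to 12, 5 to 9, 49 to 82 and 31 to 52. Over all regions it gave 19100 to 29969 called higher and 14676 to 25007 called lower, against 29579 and 24271 in the main test. Grouping by title called 0 regions and 0 sums, with 2 and 6 regions of the 9 genes and 20 and 38 of the pathway at an unadjusted p under 0.05 (edgeR). Over all regions that passed the filter in that grouping, out of 193148 in the data, these unadjusted counts were 10014 higher and 13033 lower. Sums of the 9 genes called numbered 3, against 1 in both smaller windows and 1 to 3 without a library. Start-site regions of the 9 genes called higher numbered 2, against 0 with library totals, 0 with knockdown replicate 2 alone, 1 with reads in regions, 1 with loess curves and 0 to 2 without a library. The 1 called lower, Irf3, was missed only in the grouping by title (0 called). Start-site regions of the pathway called higher numbered 13, against 2 with library totals, 8 with reads in regions, 5 with knockdown replicate 2 alone and 9 to 13 without a library. Those called lower numbered 0, against 5 with library totals, 5 with loess curves, 2 with reads in regions and 0 to 1 without a library.

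Signs turned for 12 single values. With library totals this follows from the shift of all regions (-0.27), and for the other values the cause was not tested. The Irf1 start-site region was at -0.15 with library totals, -0.16 with loess curves and -0.0093 by title, the Irf9 start-site region at -0.089 and -0.031 with the first 2 of these, and the Prmt1 start site in the Irf3 window at -0.053 with loess curves. Sums turned over gene bounds alone for Bst2 (0.48), Ifi27 (-0.11) and Nlrc5 (-0.11), and over 5000 bp for Bst2 (0.15), Ifi27 (-0.046) and Psmb8 (-0.12). Of the other single values, 381 kept their direction and their side of the threshold and 152 kept only the direction. No paired analysis was possible because the groups share no replicate numbers in the labels (1, 3 and 5 in control titles, 2, 4 and 6 in knockdown titles).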
